A study of Rattus norvegicus with 9 samples.

Results

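The RGS (regulator of G-protein signalling) genes measured here were Rgs1, Rgs2, Rgs3, Rgs4, Rgs5, Rgs10, Rgs14, Rgs16 and Rgs19. Every probeset of the array whose platform annotation gave one of these symbols was taken, whatever its signal, which gave 13 probesets of 9 genes among 15866 non-control probesets. Of these, 10 probesets of 6 genes passed the signal filter, a third-highest signal of at least 45 over the 9 arrays, and the probesets of Rgs1, Rgs14 and Rgs19 did not. RNA of male rats aged 16 weeks came from a side branch of the saphenous artery, a muscular vessel of the hind limb, and was read on 9 Affymetrix RAE230A arrays. There were 3 arrays of untreated spontaneously hypertensive rats (SHR), 3 of Wistar-Kyoto rats given ACTH under the skin during the last 4 weeks (ACTH), at 0.1 mg/kg/day according to the labels, and 3 of untreated Wistar-Kyoto rats (WKY), the normotensive strain. Each array held RNA pooled from 2 to 3 rats, so an array is not 1 animal, and the labels do not say whether pools shared animals. The study asked which artery transcripts differ in a genetic and in a hormonal form of hypertension.

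RGS proteins speed up the hydrolysis of GTP by G alpha subunits and so shorten signals from G-protein coupled receptors, such as those for angiotensin II, noradrenaline and endothelin in arterial smooth muscle. Rgs2 acts mainly on the Gq class, which drives contraction through phospholipase C, and protein kinase G, the kinase of the nitric oxide pathway, phosphorylates it in smooth muscle. In mice, loss of Rgs2 raises blood pressure, and Rgs5 is an abundant transcript of arterial smooth muscle and of pericytes.

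Of the 9 genes, 5 (Rgs1, Rgs2, Rgs4, Rgs5 and Rgs16) lie on rat chromosome 13, and Rgs5 and Rgs4 are next to each other among the protein-coding genes there. ACTH raises the adrenal output of corticosterone, a glucocorticoid, and short response elements are known for glucocorticoids and for cyclic AMP. Cyclic AMP in the artery was not measured. For a description of such elements, the sequences before the transcription starts of Rgs2 and Rgs5, the genes with called changes below, are shown. They come from RefSeq (GRCr8), 250 bases each, read 5′ to 3′ on the gene's own strand, with capitals for the cyclic AMP response element core. The Rgs2 stretch is chr13:58352667-58352916 (minus strand) and the Rgs5 stretch is chr13:84380827-84381076 (plus strand).
Rgs2: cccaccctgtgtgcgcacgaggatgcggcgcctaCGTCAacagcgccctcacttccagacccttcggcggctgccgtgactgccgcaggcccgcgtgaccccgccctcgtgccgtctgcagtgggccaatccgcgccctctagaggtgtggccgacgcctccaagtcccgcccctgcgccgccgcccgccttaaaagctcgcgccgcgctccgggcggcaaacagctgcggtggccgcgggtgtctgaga
Rgs5: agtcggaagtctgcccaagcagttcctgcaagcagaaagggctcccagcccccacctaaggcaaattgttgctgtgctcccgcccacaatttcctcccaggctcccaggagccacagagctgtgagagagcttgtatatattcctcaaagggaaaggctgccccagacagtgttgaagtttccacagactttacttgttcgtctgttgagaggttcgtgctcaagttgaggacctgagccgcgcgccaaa
Both strands of the RefSeq window, 250 bases before and 50 after the start, were searched for the cyclic AMP response element core TGACG and the glucocorticoid response element core TGTTCT, neither of which contains the other. Rgs2 held 1 match of TGACG, on the opposite strand and starting at position -216 from the transcription start, and no match of TGTTCT. Rgs5 held no match of either. TGACG occurred in 21.2% and TGTTCT in 20.7% of the 33469 RefSeq windows of the same length, so a single TGACG match is common. The Rgs2 stretch was 72.4% G or C and the Rgs5 stretch 54.4%.

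Signals are MAS5 values on a linear scale, which were compared as log2 values with limma over all 9038 kept probesets. Changes were called where the p, adjusted by the Benjamini-Hochberg method, was under 0.05, and a fold change is given with its standard error. The trimmed mean of the signals (2% removed at each end) lay between 150.03 and 150.04 for each of the arrays. The GAPDH 3′/5′ signal ratio, a measure of how far the labelled RNA reached towards the 5′ end, was 4.17 ± 0.860 in SHR, 4.05 ± 0.436 in ACTH and 5.41 ± 0.541 in WKY (SD, n = 3 each). The same ratio of beta-actin was 8.35 to 9.14 in SHR, 8.37 to 9.68 in ACTH and 9.77 to 13.6 in WKY. Every WKY array thus lay above all SHR and ACTH arrays in the beta-actin ratio, which was not put in a model. Arrays were scanned on 4 days: SHR 1, SHR 2 and WKY 2 on the first, SHR 3 and the 3 ACTH arrays on the second, and WKY 3 and WKY 1 each on a day of its own. So no ACTH array shared a scan day with a WKY array. The summed signal of 8 smooth muscle genes was 22338 to 23316 in SHR, 21062 to 22330 in ACTH and 20842 to 23594 in WKY, but Des (desmin) was lower in SHR than in WKY (-1.45 ± 0.22 on the log2 scale, limma, adjusted p = 0.00682). Of 8 endothelial probesets, those of Flt1 and Emcn were called higher and those of Vwf and Icam2 (1390310_at) lower in SHR than in WKY. The other Icam2 probeset (1389235_at) was not called. In that comparison 2.04% of all kept probesets were called. At an unadjusted p under 0.05 limma gave 7 of the 8 there (16.4% of all), and 6 values were positive and 2 negative. None of the 8 was called in ACTH against WKY. Both Col1a1 probesets, a fibroblast collagen gene, were called lower in ACTH than in WKY (-1.91 and -2.23), and the summed signal of 6 fibroblast genes was 9916 to 12482 in SHR, 7701 to 9341 in ACTH and 10149 to 11743 in WKY, with ACTH below WKY on all arrays. The 7 fibroblast probesets went both ways in ACTH against WKY, with 3 positive and 4 negative. The positive ones were Dcn, Pdgfra and Fbln1 (0.50, 0.53 and 0.30), none of them called. The summed signal of 5 adipocyte genes was 787 to 911 in SHR, 775 to 853 in ACTH and 944 to 1005 in WKY, with 2 of the genes below the signal minimum, and that of 8 skeletal muscle genes was 1442 to 1516 in SHR, 1231 to 1339 in ACTH and 1143 to 1223 in WKY, with 6 below the minimum. In SHR against WKY Cidea was called lower (-1.90, limma, adjusted p = 0.0019). Fabp4 and Lpl, the other kept adipocyte genes, had positive values that were not called. No adipocyte probeset was called in ACTH against WKY, and Lpl alone was negative (-0.54). Acta1, of skeletal muscle, was called higher in SHR than in WKY (0.92, limma, adjusted p = 0.0102). The Myh1 values were all negative there, with 1377719_a_at called lower (-0.79, limma, adjusted p = 0.0329). The summed signal of 7 macrophage genes was 966 to 1503 in SHR, 1373 to 2013 in ACTH and 425 to 1212 in WKY, and all 7 had positive fold changes in both hypertensive groups, with none called against WKY by limma (3 in SHR and 6 in ACTH at an unadjusted p under 0.05, beside 16.4% and 12.5% of all kept probesets). Of 9 lymphocyte and other leukocyte genes, 8 were below the signal minimum. The part of RNA length, scan day or cell content in the results below was not tested beyond the values given beside them.

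Rgs5 fell in SHR and Rgs2 fell in ACTH. Rgs5 was 1.96-fold lower in SHR than in WKY, and Rgs2 (probeset 1387074_at) was 1.93-fold lower in ACTH than in WKY. Rgs5 also had low signals in ACTH, 1.76-fold lower than in WKY, which did not pass the test, and SHR and ACTH were not shown to differ in it. Both Rgs2 probesets were higher in SHR than in ACTH, by 1.62-fold (1387074_at) and 2.44-fold (1368144_at). In whole arteries, fewer cells of a type and less RNA per cell cannot be told apart. Among the 10 kept RGS probesets, 1 was called in SHR against WKY, where 2.04% of all kept probesets were called, 1 was called in ACTH against WKY (1.25% of all), and 2 were called in SHR against ACTH (3.41% of all). An F test over the 3 groups called both Rgs2 probesets (adjusted p = 0.00924 and 0.0407) and Rgs5 (adjusted p = 0.0246), and 4.12% of all kept probesets.

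**Figure D1:**
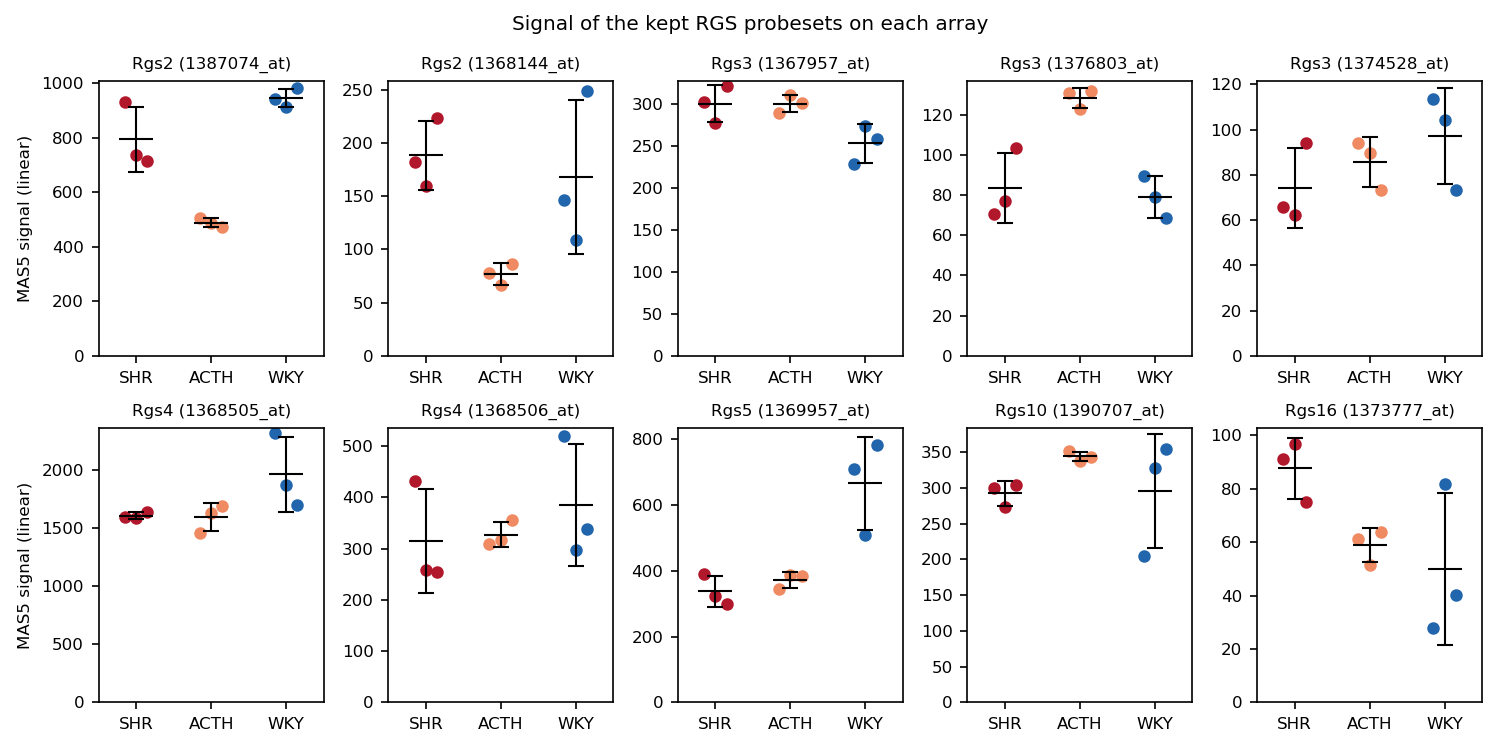
MAS5 signal (linear scale) of the 10 kept RGS probesets on the 9 arrays, with each point 1 array, the horizontal dash the group mean and the bar ± 1 SD (n = 3 arrays). Rgs5 signals of SHR and ACTH all lie below the WKY signals, and the Rgs2 signals of ACTH lie below those of both other groups for either probeset.

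Rgs2 was read by probesets 1387074_at and 1368144_at. On 1387074_at the signals were 932, 736 and 715 in SHR, 505, 487 and 473 in ACTH, and 940, 914 and 980 in WKY. The ACTH arrays lay below all others and close together, and SHR 1 alone of the SHR arrays lay within the WKY range. The log2 fold change was -0.95 ± 0.14 in ACTH against WKY (limma, adjusted p = 0.0120, 95% interval -1.26 to -0.64). Against WKY the SHR value was -0.26 ± 0.14 (adjusted p = 0.388, 95% interval -0.57 to 0.05), and the difference between the models, SHR against ACTH, was 0.69 ± 0.14 (adjusted p = 0.0258). The ACTH call was lost without ACTH 1, ACTH 2, ACTH 3 or WKY 3 (limma, adjusted p = 0.0597, 0.0562, 0.0585 and 0.0521), with log2 fold changes of -0.98 to -0.92 over all 9 single omissions.

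On 1368144_at the signals were 182, 159 and 224 in SHR, 77.6, 66.2 and 86.7 in ACTH, and 146, 109 and 249 in WKY. The ACTH arrays again lay below every other array, while the SHR arrays fell inside the wide WKY range. The ACTH against WKY value of -1.05 ± 0.27 did not pass the threshold (limma, adjusted p = 0.119, 95% interval -1.65 to -0.45), and the SHR against WKY value was 0.24 ± 0.27 (adjusted p = 0.705). SHR against ACTH was called at 1.29 ± 0.27 (adjusted p = 0.0286). The WKY spread on this probeset was wide, with a coefficient of variation of 43.1% against 3.53% on 1387074_at. Without WKY 2 the ACTH against WKY value became -1.32 (adjusted p = 0.0352), and without WKY 3 it became -0.72 (adjusted p = 0.217).

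The SHR against ACTH calls were lost when some single arrays were omitted. Over all kept probesets, 108 to 322 were called in this comparison with 1 array omitted, beside 308 with all arrays. For 1387074_at the call was lost without SHR 2 or any ACTH array, with adjusted p-values between 0.0612 and 0.113. For 1368144_at it was lost without any SHR or any ACTH array, with adjusted p-values between 0.0612 and 0.0957. The log2 fold changes stayed at 0.57 to 0.76 and 1.16 to 1.40. On the scan day that SHR 3 shared with the 3 ACTH arrays, the differences were 0.55 and 1.55, both as 1 array against 3 with no test. The scan day block gave these same values, since it rests on that day for this comparison. With scan day as a block neither probeset was called (adjusted p = 0.383 and 0.0529). No ACTH array shared a day with WKY, so that block linked ACTH to WKY 2 only through the SHR arrays. For 1387074_at in ACTH against WKY it gave -0.69, which was not called. With the GAPDH 3′/5′ ratio added to the model this value was -1.11 (adjusted p = 0.114), and both SHR against ACTH calls remained (adjusted p = 0.0272 and 0.0401).

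The log2 ratio of the signals, 1368144_at over 1387074_at, was compared between groups to ask whether both Rgs2 probesets responded alike. It averaged -2.08 ± 0.36 in SHR, -2.68 ± 0.22 in ACTH and -2.58 ± 0.55 in WKY (SD, n = 3 each). The differences were 0.50 for SHR against WKY (exact two-sided permutation test, p = 0.3), -0.10 for ACTH against WKY (p = 0.8) and 0.60 for SHR against ACTH (p = 0.1). With 3 arrays against 3 such a test cannot give a p under 0.1. The probesets had fold changes of the same sign in ACTH against WKY and in SHR against ACTH, and of opposite sign in SHR against WKY, and their log2 signals correlated with r = 0.77 over the 9 arrays, which include the group differences. The transcript positions of the probes were not analysed here.

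**Figure D2:**
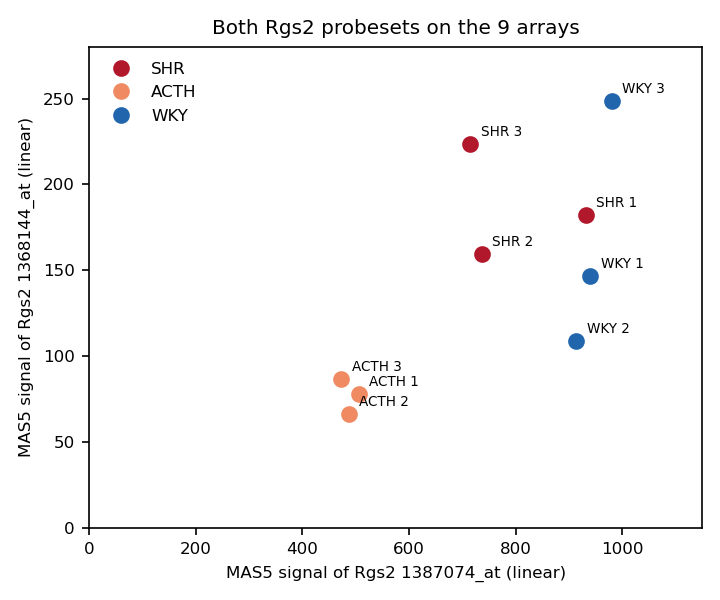
MAS5 signal of Rgs2 probeset 1368144_at (vertical axis, linear) against that of 1387074_at (horizontal axis, linear), with each point 1 array, coloured by group. The 3 ACTH arrays sit at the lower left, apart from the SHR and WKY arrays on both probesets.

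Rgs5 was read by 1 probeset. Its signals were 390, 324 and 299 in SHR, 346, 387 and 386 in ACTH, and 711, 509 and 782 in WKY. All SHR and all ACTH arrays lay below the lowest WKY array, and SHR and ACTH overlapped. The log2 fold change was -0.97 ± 0.18 in SHR against WKY (limma, adjusted p = 0.0233, 95% interval -1.37 to -0.56). In ACTH against WKY it was -0.82 ± 0.18 and did not pass (adjusted p = 0.0667, 95% interval -1.22 to -0.41). The models differed from each other by -0.15 ± 0.18 (adjusted p = 0.737, 95% interval -0.55 to 0.25), so a difference in either direction of up to those bounds was not resolved. The SHR and ACTH comparisons share the 3 WKY arrays.

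The Rgs5 call was also lost when some single arrays were omitted. Over all kept probesets, 100 to 225 were called in SHR against WKY with 1 array omitted, beside 184 with all arrays. Without SHR 2, SHR 3, WKY 1 or WKY 3 the SHR against WKY adjusted p was 0.0866, 0.0686, 0.0848 and 0.0777, with log2 fold changes of -1.15 to -0.84 over all 9 single omissions. WKY 2 had the lowest Rgs5 signal of the WKY arrays, and without it the ACTH against WKY value passed the threshold (adjusted p = 0.0218). WKY 2 was also the single WKY array scanned with SHR arrays. Within that day SHR 1 and SHR 2 lay 0.52 below WKY 2 on the log2 scale. With scan day as a block, WKY 1 and WKY 3, alone on their days, dropped out of the comparisons. The block value of Rgs5 in SHR against WKY, -0.52, was therefore this same difference. In ACTH against WKY the block gave -0.20, linked to WKY 2 only through the SHR arrays, and neither value was called. With the GAPDH 3′/5′ ratio added to the model the SHR value was -1.25 (adjusted p = 0.0628).

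Since Rgs5 also marks pericytes, the other pericyte genes were read beside it. Of 8 such genes on the array 7 passed the filter, with 9 probesets and none called by limma in any comparison. Limma gave 3 of the 9 in SHR against WKY at an unadjusted p under 0.05 (16.4% of all kept probesets). In ACTH against WKY it gave 3 (12.5% of all), and in SHR against ACTH 2 (17.3% of all). The summed signal of the 8 pericyte genes was 3443 to 4279 in SHR, 3600 to 3774 in ACTH and 3561 to 3910 in WKY. The median log2 fold change of the 9 probesets was 0.19 in SHR against WKY and -0.29 in ACTH against WKY, against -0.0041 and 0.02 over all kept probesets. The fold changes were positive for 5 and negative for 4 of them in SHR against WKY, and positive for 4 and negative for 5 in ACTH against WKY. Whether mural cell content had a part in the Rgs5 values was not tested.

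**Figure D3:**
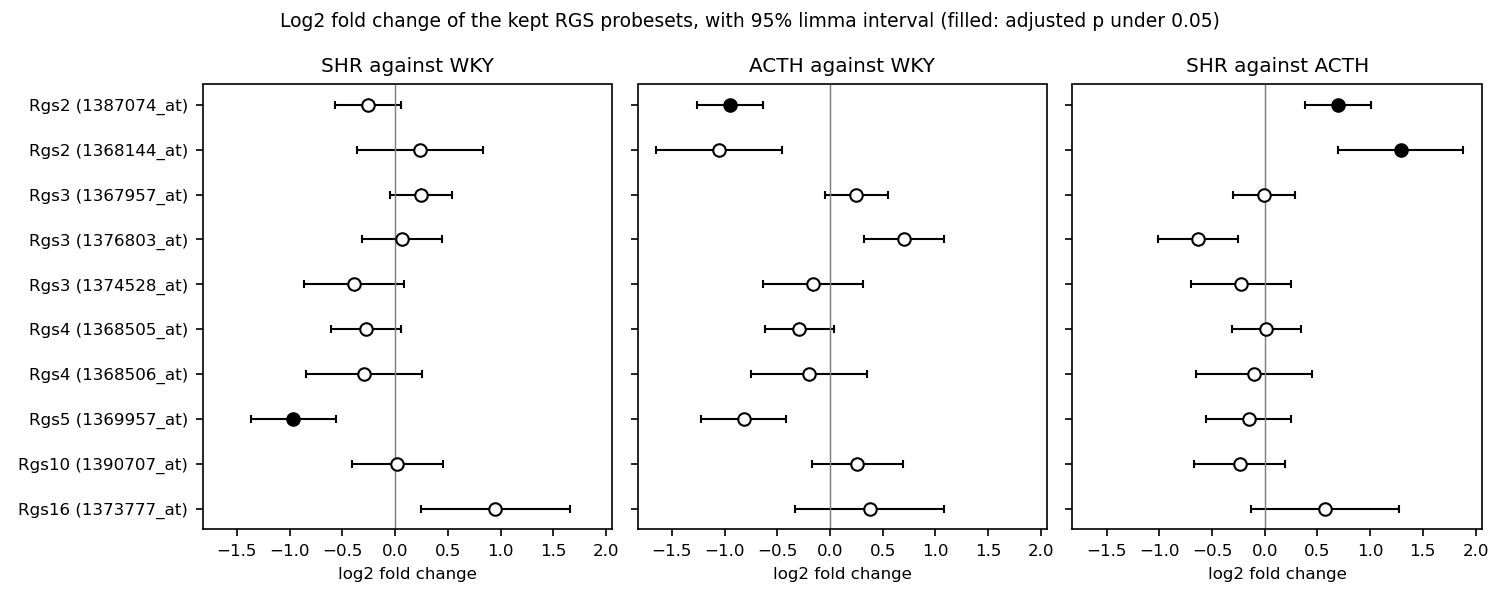
Log2 fold change of the 10 kept RGS probesets in SHR against WKY, ACTH against WKY and SHR against ACTH, with 95% limma intervals and filled points for an adjusted p under 0.05. Filled points are Rgs5 in SHR against WKY, Rgs2 1387074_at in ACTH against WKY and both Rgs2 probesets in SHR against ACTH.

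Rgs4, a regulator of the Gi and Gq classes and the chromosomal neighbour of Rgs5, was not called in any comparison. On probeset 1368505_at the signals were 1599, 1584 and 1643 in SHR, 1460, 1633 and 1693 in ACTH, and 2319, 1874 and 1697 in WKY. Every SHR and ACTH array lay below the lowest WKY array, though ACTH 3 and WKY 3 nearly met. The log2 fold changes were -0.28 ± 0.15 in SHR against WKY (limma, adjusted p = 0.387) and -0.29 ± 0.15 in ACTH against WKY (adjusted p = 0.487). The probeset 1368506_at gave 431, 258 and 255 in SHR, 309, 317 and 356 in ACTH, and 520, 296 and 339 in WKY, with overlapping groups. Its values against WKY were -0.29 ± 0.25 in SHR and -0.20 ± 0.25 in ACTH (adjusted p = 0.593 and 0.822). As a description over the 9 arrays, which include the group differences, Rgs5 and Rgs4 1368505_at correlated with r = 0.68. Both had their highest group mean in WKY. Among the kept RGS probesets this was the highest positive r of Rgs5, ahead of Rgs2 1387074_at (r = 0.60). Larger absolute values were negative, with Rgs3 1367957_at (r = -0.82) and with Rgs16 (r = -0.74).

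Rgs3, which acts on Gi and Gq alpha subunits, was read by 3 probesets that did not move alike. On 1376803_at the signals were 70.5, 77.1 and 103 in SHR, 131, 123 and 132 in ACTH, and 89.6, 79.2 and 68.7 in WKY. The ACTH arrays lay above all 6 others, but neither ACTH against WKY (0.70 ± 0.17, limma, adjusted p = 0.0955) nor SHR against ACTH (-0.64 ± 0.17, adjusted p = 0.0759) passed. With array weights both passed (adjusted p = 0.0338 and 0.0239), and without SHR 3 the SHR against ACTH value did (-0.80, adjusted p = 0.0405). On 1367957_at the signals were 302, 278 and 321 in SHR, 290, 311 and 301 in ACTH, and 228, 273 and 258 in WKY. Both hypertensive groups lay above WKY without overlap, with 0.25 ± 0.13 in each comparison (adjusted p = 0.385 in SHR and 0.503 in ACTH). On 1374528_at the signals were 65.9, 62.1 and 94.2 in SHR, 94.1, 89.4 and 73.4 in ACTH, and 114, 104 and 73.4 in WKY, with negative values against WKY (-0.39 ± 0.21 in SHR and -0.16 ± 0.21 in ACTH, adjusted p = 0.393 and 0.828). The Rgs3 probesets therefore disagreed in sign, and their pairwise r over the 9 arrays ranged from -0.31 to 0.43.

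Rgs16, an inducible regulator of Gi and Gq signals, had 91.1, 96.8 and 75.0 in SHR, 61.2, 51.6 and 63.8 in ACTH, and 27.7, 81.9 and 40.4 in WKY. SHR lay above ACTH, and WKY spanned most of the range through WKY 2. The log2 fold change of 0.95 ± 0.32 in SHR against WKY did not pass (limma, adjusted p = 0.180). Without WKY 2 it was 1.38 (adjusted p = 0.00998), and on the scan day shared by SHR 1, SHR 2 and WKY 2 it was 0.20. Against WKY the ACTH value was 0.38 ± 0.32 (adjusted p = 0.705).

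Rgs10, a small regulator of Gi alpha subunits, had 299, 273 and 304 in SHR, 351, 338 and 343 in ACTH, and 204, 328 and 354 in WKY. The hypertensive groups lay inside the WKY range, which WKY 1 extended downwards. The values against WKY were 0.02 ± 0.20 in SHR and 0.26 ± 0.20 in ACTH (limma, adjusted p = 0.966 and 0.661).

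Rgs1, a regulator known from B lymphocytes, Rgs14, known from neurons, and Rgs19, a regulator of Gi alpha subunits, had signals of 0.34 to 16.7 on the 9 arrays, all under the minimum of 45. Their third-highest signals were 6.06, 10.4 and 8.38. The values deposited carry no detection calls, so no presence call or fold bound was given for them. In a fit of all non-control probesets their limma adjusted p-values ran from 0.730 to 0.985 over the 3 comparisons, with standard errors of 0.67 to 1.12 on the log2 scale, so a change of the size seen for Rgs5 or Rgs2 could not have been resolved for them.

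Counted by arrays rather than by test, 3 of the 10 kept RGS probesets did not overlap between SHR and WKY (19.3% of all kept probesets), 6 did not overlap between ACTH and WKY (20.5% of all) and 5 did not overlap between SHR and ACTH (25% of all). These probesets share genes and the comparisons share arrays, so the counts are a description. At an unadjusted p under 0.05, limma gave 2 RGS probesets in SHR against WKY (16.4% of all), 4 in ACTH against WKY (12.5% of all) and 3 in SHR against ACTH (17.3% of all). The median log2 fold change of the RGS probesets was -0.12 in SHR against WKY and -0.18 in ACTH against WKY, beside -0.0041 and 0.02 over all kept probesets.

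**Figure D4:**
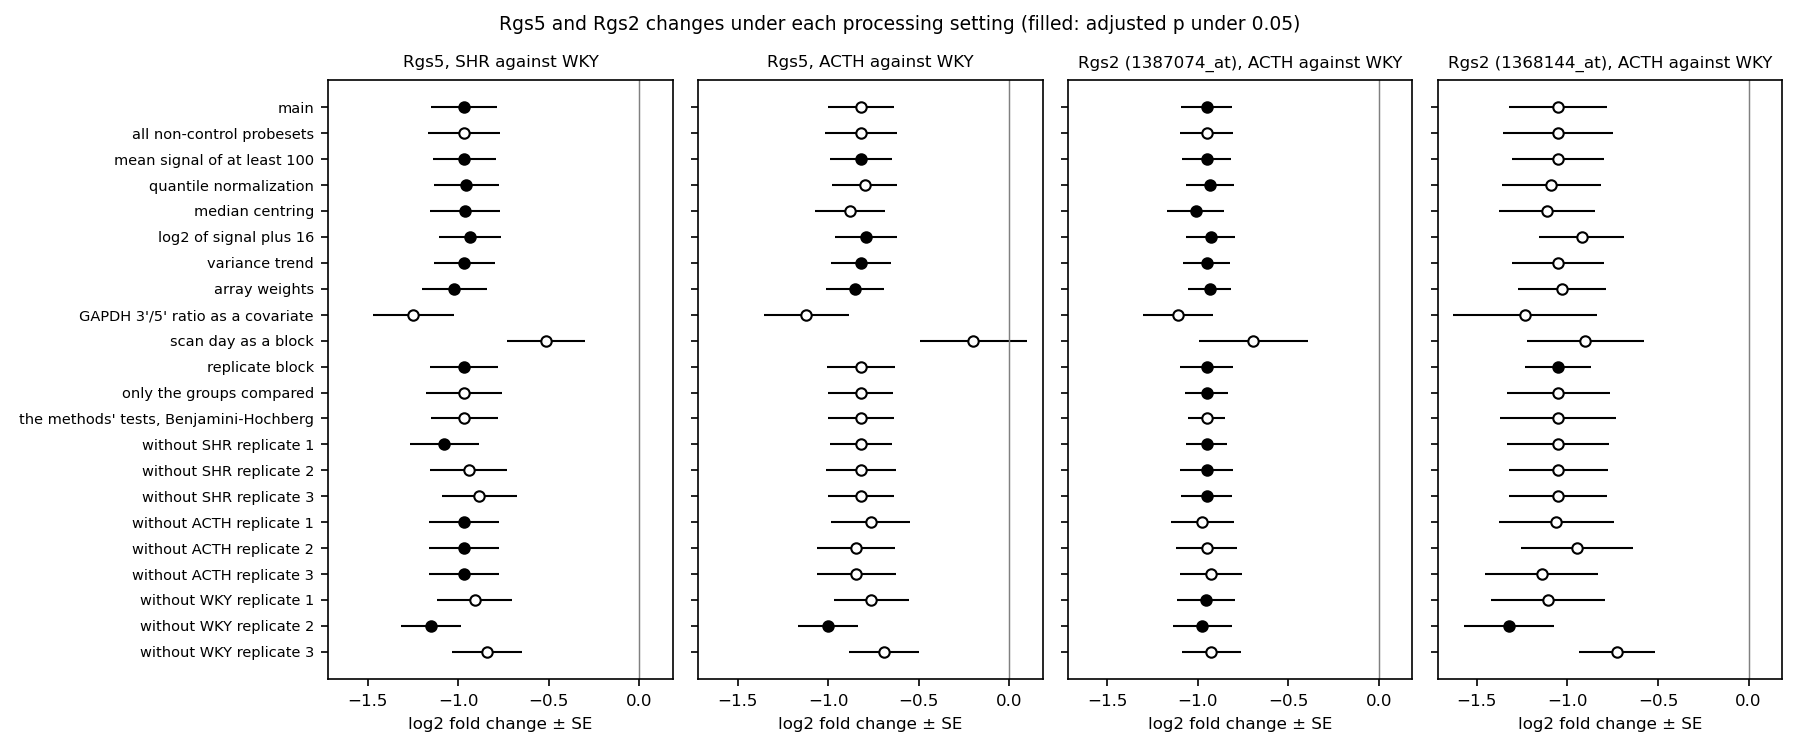
Log2 fold change (horizontal axis, ± SE) of Rgs5 in SHR and ACTH, and of both Rgs2 probesets in ACTH, against WKY under each processing setting (rows), filled where the adjusted p was under 0.05. The 4 panels show Rgs5 in both models and each Rgs2 probeset in ACTH, and their values are negative in every row, and the scan day block brings Rgs5 nearest to 0 (-0.52 in SHR and -0.20 in ACTH).

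The genes around the RGS proteins in the same signalling pathway were read from 6 lists: other RGS-domain and RGS-binding genes, G alpha subunits, Gq effectors, vasoconstrictor receptors, the cyclic GMP and protein kinase G genes, and receptor kinases and arrestins. Of 85 genes listed, 67 were on the array and 39 were kept, with 42 probesets. In SHR against WKY 1 probeset was called lower and none higher, in SHR against ACTH 1 was called lower and none higher, and in ACTH against WKY limma called none, where 2.04%, 3.41% and 1.25% of all kept probesets were called in those comparisons. At an unadjusted p under 0.05 limma gave 7 probesets in SHR against WKY, 13 in SHR against ACTH and 6 in ACTH against WKY, of 42 each, where the shares of all kept probesets were 16.4%, 17.3% and 12.5%. The methods' tests at their own thresholds gave 1 of 42 in each comparison. Of all 9038 kept probesets those tests gave 496, 598 and 376, in the same order. The median log2 fold change over the 42 probesets was -0.10 in SHR against WKY and 0.08 in ACTH against WKY.

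The called probeset, 1369097_s_at, was that of Gucy1b1, the beta subunit of the soluble guanylate cyclase that makes cyclic GMP in response to nitric oxide. Its mean signal was 198 in SHR, 442 in ACTH and 384 in WKY. The log2 fold changes were -0.94 ± 0.18 in SHR against WKY (limma, adjusted p = 0.0282) and -1.14 ± 0.18 in SHR against ACTH (adjusted p = 0.00875). The second Gucy1b1 probeset, 1374389_at, gave -0.48 ± 0.29 in SHR against WKY (adjusted p = 0.431), in the same direction but not called.

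The other 5 lists held no called probeset, and the member with the lowest adjusted p is given for each. Agtr1b, a receptor for angiotensin II, had 0.89 ± 0.25 in SHR against WKY (limma, adjusted p = 0.105). Plcb4, a phospholipase C that Gq activates, had -0.44 ± 0.17 in SHR against ACTH (adjusted p = 0.215), and Rgs9, a regulator best known from retina and striatum, had 0.57 ± 0.20 in SHR against WKY (adjusted p = 0.201). Gnai1, a Gi alpha subunit, had -0.35 ± 0.15 and Grk5, a receptor kinase, had -0.32 ± 0.25 in SHR against ACTH (adjusted p = 0.255 and 0.574). Of 13 G alpha subunit genes 4 were kept (Gnas, Gnai1, Gnai2 and Gna12), so the Gq class that Rgs2 acts on was not read by a kept probeset.

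**Figure D5:**
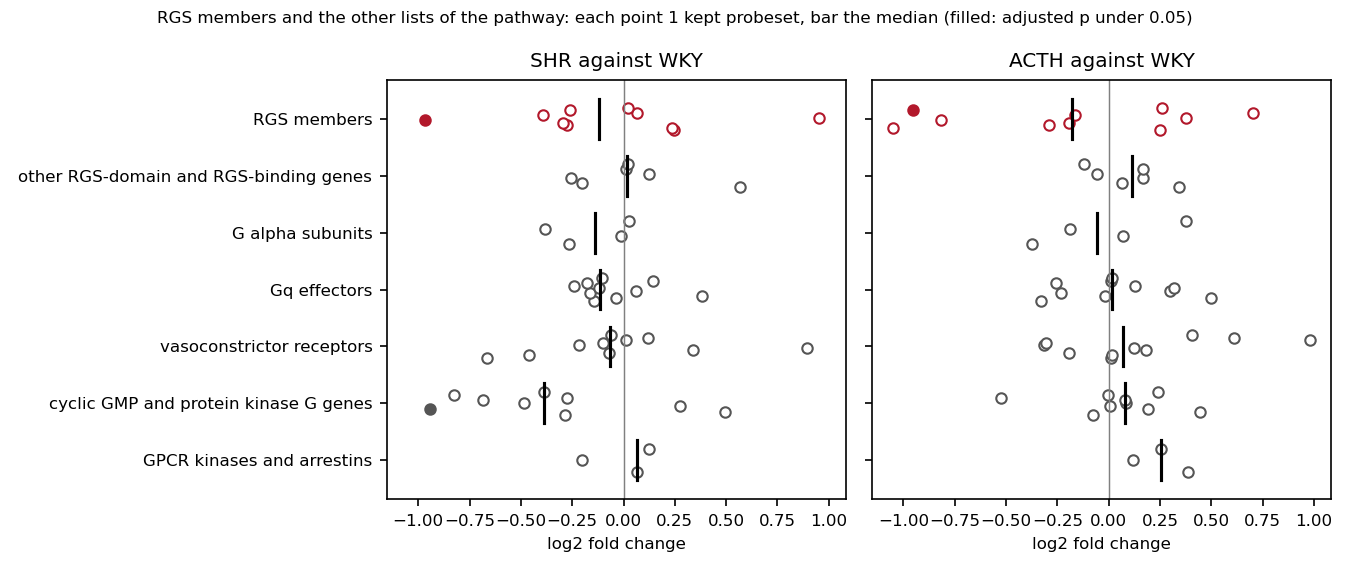
Log2 fold change (horizontal axis) of each kept probeset of the RGS genes and of the 6 lists of the same pathway in SHR against WKY and ACTH against WKY, with a vertical bar for each list's median and filled points for an adjusted p under 0.05. Filled points are Rgs5 and Gucy1b1 in SHR against WKY and Rgs2 in ACTH against WKY.

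The 5 genes whose log2 signals followed each called probeset most closely over the 9 arrays were named as a description, with no test, since the correlation includes the group differences. For Rgs5 they were Tnmd (tenomodulin, r = 0.96), Lox (lysyl oxidase, which cross-links collagen and elastin, r = 0.95), Cep19 (r = 0.92), Tnc (tenascin C, r = 0.91) and Ak3 (r = 0.91). The mean signal of Tnmd was 94.6 in SHR, 121 in ACTH and 266 in WKY, and that of Lox was 495 in SHR, 569 in ACTH and 825 in WKY, so both had the low values in both hypertensive groups that Rgs5 had. For Rgs2 1387074_at they were Gadd45g (r = 0.97), Glt8d1 (r = 0.96), Pxdn (peroxidasin, r = 0.95), Col8a1 (a collagen chain, r = 0.95) and Sspn (sarcospan, r = 0.94). For Rgs2 1368144_at they were Tob2 (r = 0.95), Psmd4 (r = 0.95), Akip1, B2m and Top1 (r = 0.92 each), and no gene was among the first 5 for both Rgs2 probesets.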

How the data were processed

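RNA of a saphenous artery branch was measured on 9 arrays, and groups were taken from the sample labels. The authors amplified RNA over 2 cycles, hybridised it to RAE230A arrays and processed the scans with MAS5, and they deposited the linear intensity of each probeset, with no detection calls. The scan days come from the run files deposited with the arrays, and 1 of these, that of WKY 3, had no fluidics entries. The study's own array names carry an added letter for the third WKY array, and whether it was a repeat hybridisation is not given in the sources used here. The labels give an ACTH dose of 0.1 mg/kg/day and the study's methods a different one, so samples were grouped by treatment. Amplification from the 3′ end makes signals depend on probe position and RNA length, and the values of different probesets were not compared as levels.

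Of 15923 probesets 57 are Affymetrix controls. Probesets with a third-highest signal of at least 45 were kept (9038), in place of the presence calls that the methods used. Symbols came from the platform annotation and were checked through gene identifiers against RefSeq, which held 10379 of 10412 identifiers and changed 0 symbols. Of the kept probesets 7676 had 1 symbol, 219 several and 1143 none.

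Log2 signals of the 3 groups were fitted in R 4.3.3 with limma 3.58.1 (lmFit and eBayes, 6 residual and 4.51 prior degrees of freedom). Two-sided p-values of all kept probesets were adjusted together (Benjamini-Hochberg, threshold 0.05). The fit was tested on simulated data with known changes. The Rgs2 probeset ratio was compared by exact permutation over arrays. The number of arrays limits the precision, and the pooling of rats leaves the spread between single animals unmeasured.

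Named were all RGS probesets, the called members of each pathway list or, in lists without one, the member of smallest adjusted p, and the 5 genes most correlated with each called RGS probeset. Marker genes outside this rule (Des, Flt1, Emcn, Vwf, Icam2, Col1a1, Dcn, Pdgfra, Fbln1, Cidea, Fabp4, Lpl, Acta1 and Myh1) were named after their values were seen. The RGS genes, lists and tests were chosen with earlier results of these data known. Other settings tried were the removal of the signal filter, a filter at a mean signal of 100, median centring, quantile normalization, log2 of signal plus 16, arrays weighted by quality, a variance that follows the mean signal, the GAPDH 3′/5′ ratio in the model, blocks for replicate number or scan day, fits of each pair of groups, single arrays omitted, and the methods' tests (an F threshold of 0.02 and a contrast threshold of 0.015). Promoter sequences came from RefSeq (GRCr8), where all 9 genes had an entry. Protein and probe sequences were not used here.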

Additional observations from a re-analysis of the deposited data

Results flagged for a closer look

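Both Rgs2 probesets differed between the hypertension models, by a test of the difference itself. The SHR effect minus the ACTH effect, each against WKY, was 0.69 ± 0.14 on the log2 scale for 1387074_at (limma, adjusted p = 0.0258) and 1.29 ± 0.27 for 1368144_at (adjusted p = 0.0286). The WKY arrays cancel in this difference, which is the SHR against ACTH comparison. All 3 SHR arrays lay above all 3 ACTH arrays on both probesets. The SHR 3 array, scanned with the ACTH arrays, exceeded their mean by 0.55 on 1387074_at and by 1.55 on 1368144_at. These are also the values that the scan day block gave. With scan day as a block neither difference was called (adjusted p = 0.383 for 1387074_at and 0.0529 for 1368144_at). Without SHR 2 or any ACTH array the call of 1387074_at was lost, and without any SHR or any ACTH array that of 1368144_at (adjusted p up to 0.113 and 0.0957).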

How the results depend on the processing

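The counts of RGS probesets called (1 in SHR against WKY, 1 in ACTH against WKY and 2 in SHR against ACTH) moved with the processing, and counts below follow that order of comparisons. With scan day as a block 0 were called in each comparison by limma (3, 2 and 2 at an unadjusted p under 0.05), with 25, 0 and 34 calls over all kept probesets. With all non-control probesets 0 were called in each comparison (2, 4 and 3 unadjusted), with 72, 0 and 52 calls over all probesets. With the GAPDH 3′/5′ ratio added to the model 0 were called in SHR against WKY and 0 in ACTH against WKY (1 and 4 unadjusted), with 35 and 0 calls over all probesets. With the groups compared alone 0 were called in SHR against WKY (2 unadjusted), with 97 calls over all probesets. The methods' tests after Benjamini-Hochberg adjustment gave 0 in SHR against WKY, 0 in ACTH against WKY and 1 in SHR against ACTH (90, 5 and 120 over all probesets), and at their own thresholds 3 in ACTH against WKY and 3 in SHR against ACTH (496, 376 and 598 over all probesets). ACTH against WKY had 2 with a mean signal of at least 100, with log2 of signal plus 16 and with a variance trend. The added probeset was Rgs5 in each. Calls over all probesets in that comparison were then 91 (of 6116 tested), 150 and 161, beside 113 in the main fit. With array weights ACTH against WKY had 3, and SHR against ACTH also had 3 (205 and 895 calls over all probesets). The added probesets in SHR against ACTH were Rgs3 1376803_at in both cases. Leaving out 1 array gave 0 to 2, 0 to 3 and 0 to 2 RGS probesets, with 100 to 225, 34 to 136 and 108 to 322 calls over all probesets. The highest counts against WKY were those without WKY 2. The split of higher and lower calls in SHR against ACTH, 140 and 168 as reported, was 203 and 134 with median centring, which shifted the median of that comparison by 0.066, and 172 and 156 with quantile normalization. Higher calls also exceeded lower ones with a mean signal of at least 100 (146 and 137), a variance trend (193 and 187), all non-control probesets (27 and 25) and the methods' own thresholds (310 and 288). The cause of these shifts was not tested.

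With the replicate number as a block, ACTH against WKY had 2 RGS probesets called, the added one being Rgs2 1368144_at (adjusted p = 0.0362), with 97 calls over all kept probesets, and the other comparisons kept their counts of 1 and 2. Deviations of same-numbered arrays from their group means correlated with r from -0.07 to 0.13 over all kept probesets. Such values cannot show whether same-numbered samples shared any handling.

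No called RGS value changed sign in any setting. No value that changed sign was called before or after. With the scan day block these were Rgs3 1367957_at in ACTH against WKY (-0.014) and in SHR against ACTH (0.10), Rgs3 1376803_at in SHR against WKY (-0.10), Rgs3 1374528_at in SHR against ACTH (0.15), Rgs4 1368506_at in SHR against WKY (0.17) and in ACTH against WKY (0.53), Rgs10 in SHR against WKY (-0.20) and in ACTH against WKY (-0.023), and Rgs16 in ACTH against WKY (-0.16). With the GAPDH ratio Rgs3 1374528_at gave 0.051 in SHR against WKY and 0.31 in ACTH against WKY. Rgs3 1367957_at in SHR against ACTH gave 0.00054 with quantile normalization, 0.062 with median centring and 0.0019 with array weights. Rgs4 1368505_at in SHR against ACTH gave -0.043 with quantile normalization, Rgs10 in SHR against WKY gave -0.032 with array weights, and the Rgs2 probeset ratio in ACTH against WKY gave 0.0084 with log2 of signal plus 16. Over single omitted arrays the ranges that crossed 0 were -0.033 to 0.56 for Rgs2 1368144_at, -0.094 to 0.18 for Rgs3 1376803_at and -0.22 to 0.17 for Rgs10 in SHR against WKY, -0.36 to 0.043 for Rgs4 1368506_at and -0.35 to 0.20 for the Rgs2 probeset ratio in ACTH against WKY, and -0.054 to 0.052 for Rgs3 1367957_at, -0.047 to 0.060 for Rgs4 1368505_at and -0.35 to 0.031 for Rgs4 1368506_at in SHR against ACTH. Over the single RGS values and these settings, 577 kept their direction and side of the threshold, 32 lost a call, 14 gained one and 28 changed sign. Most of the 577 were values that were not called in the main fit and stayed so. All 32 lost calls came from the few values called there, 1 in SHR against WKY, 1 in ACTH against WKY and 2 in SHR against ACTH.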
